A study of Mus musculus with 8 samples.

Results

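The intraepithelial lymphocyte genes described here are 9 genes: Cd3e, Cd3g, Cd8a, Cd7, Itgae, Gzma, Gzmb, Nkg7 and Ccl5. They were chosen by symbol, and all 9 were found among the 23951 gene symbols of the expression table. The samples were 8 RNA libraries of jejunal crypts in 3 groups, and every mouse carried the conditional allele BRAF-V600E f/+ and Villin-CreER(T2), and received tamoxifen on 4 consecutive days. The group labelled CDX2KO_Braf had in addition Cdx2 f/f and 2 libraries, SMAD4KO_Braf had Smad4 f/f and 3 libraries, and BRAF carried no further floxed gene and had 3 libraries. Crypts were freed from the jejunum with 3 mM EDTA and a 70 micron filter 1 day after the last injection. The Villin promoter drives the recombinase in intestinal epithelial cells, so none of these deletions is directed at lymphocytes. The labels do not say whether the libraries came from separate animals, and the p-values below measure only the spread between libraries.

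Intraepithelial lymphocytes sit between the epithelial cells of the small intestine, above the basement membrane. Most are T cells with CD8 alpha on their surface and granzymes in their granules, and they are held in place by an integrin that binds E-cadherin on the epithelial cells. Crypt preparations can hold some of these cells beside the epithelium. In bulk RNA, fewer cells of this type and less RNA per cell cannot be told apart.

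All values are FPKM, a level scaled to transcript length and library size, as deposited by the authors, and are listed by library number within each group. Summed FPKM lay between 431269 and 595547 per library, and the files hold no read counts. The commonest low value, scaled to transcript length and assumed to stand for 1 read, put 1 read on 1 kb of transcript at an estimated 0.0377 to 0.0775 FPKM. Smad4 had 10.7, 8.38 and 7.66 FPKM in SMAD4KO_Braf and 42.5, 47.0 and 42.4 FPKM in BRAF. Cdx2 had 155 and 121 FPKM in the libraries labelled CDX2KO_Braf, against 64.2, 82.6 and 80.1 FPKM in BRAF, so its level goes against that label, and each direction given below for that group rests on the label. FPKM is a value for the whole gene and does not tell reads of a deleted stretch from those of the rest, so it is no direct check of the deletion. BRAF library 0 and SMAD4KO_Braf library 0 carried Y-linked transcripts and no appreciable Xist and were male, and the other 6 libraries were female.

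The 9 genes varied widely between libraries of the same group, and the groups overlapped for each of them. Each was lowest in library 0 labelled CDX2KO_Braf and highest in BRAF library 1, and the fold between the lowest and the highest of 8 libraries ran from 39.2 for Itgae to 123 for Gzmb. Within the 3 BRAF libraries, which share a genotype and a treatment, the highest level exceeded the lowest by 21.6-fold (Cd7) to 36.4-fold (Ccl5). In SMAD4KO_Braf this fold was 8.38 (Gzma) to 13.3 (Cd3e), and in the libraries labelled CDX2KO_Braf it was 2.89 (Ccl5) to 8.20 (Nkg7). The summed FPKM of the 9 genes was 16.2 and 71.1 in the libraries labelled CDX2KO_Braf, 54.0, 166 and 498 in SMAD4KO_Braf and 36.3, 1048 and 184 in BRAF. Between 0.00322% and 0.226% of a library's summed FPKM came from them.

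**Figure D1:**
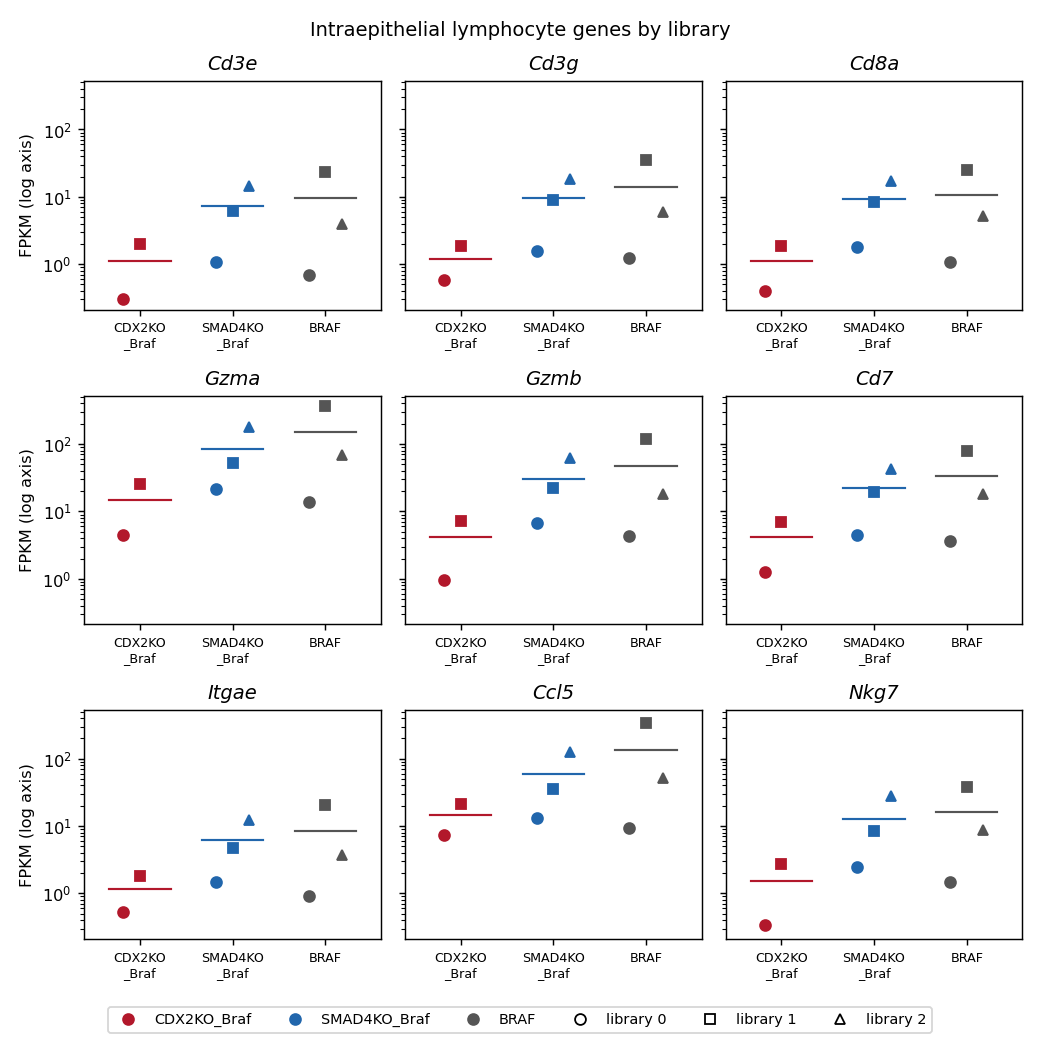
FPKM (log axis) of each of the 9 genes in 2 libraries labelled CDX2KO_Braf, 3 of SMAD4KO_Braf and 3 of BRAF; symbols mark the library number and lines the group mean. Every panel repeats the same picture, with library 0 lowest in each group and BRAF library 1 highest of all 8.

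Cd3e and Cd3g encode the epsilon and gamma chains of CD3, which carry the signal of the T cell receptor into the cell. Cd3e had 0.301 and 1.96 FPKM in the libraries labelled CDX2KO_Braf, 1.08, 6.23 and 14.3 FPKM in SMAD4KO_Braf and 0.682, 23.8 and 3.98 FPKM in BRAF. Library 0 was the low one in each group, and the 3 groups overlapped. Cd3g, at a somewhat higher level in 7 of the 8 libraries, had 0.574 and 1.85 FPKM in the libraries labelled CDX2KO_Braf, 1.56, 9.01 and 18.6 FPKM in SMAD4KO_Braf and 1.23, 34.8 and 5.98 FPKM in BRAF. It ordered the 8 libraries exactly as Cd3e did.

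Cd8a encodes the alpha chain of the CD8 co-receptor, which intraepithelial lymphocytes often carry as a pair of alpha chains without the beta chain. Its level was 0.399 and 1.86 FPKM in the libraries labelled CDX2KO_Braf, 1.80, 8.26 and 17.3 FPKM in SMAD4KO_Braf and 1.07, 25.4 and 5.15 FPKM in BRAF. Cd8b1, the gene of the beta chain, stood at 21.6% and 26.8% of the Cd8a level in the libraries labelled CDX2KO_Braf, at 17.0% to 18.1% in SMAD4KO_Braf and at 0% to 14.6% in BRAF, with both genes in FPKM and so per length. The alpha chain was thus the more abundant transcript in all 8 libraries. Cd4, the co-receptor of helper T cells, was at 40.3% and 6.69% of Cd8a in the libraries labelled CDX2KO_Braf, 3.17% to 8.02% in SMAD4KO_Braf and 1.38% to 7.02% in BRAF. The high share belongs to the library with the least Cd8a, where Cd4 itself was at 0.161 FPKM.

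Cd7, which encodes a surface protein of T and natural killer cells, had 1.26 and 7.01 FPKM in the libraries labelled CDX2KO_Braf, 4.43, 19.3 and 42.0 FPKM in SMAD4KO_Braf and 3.62, 78.2 and 17.9 FPKM in BRAF. Itgae encodes CD103, the alpha chain of the integrin that binds E-cadherin, and had 0.530 and 1.83 FPKM in the libraries labelled CDX2KO_Braf, 1.45, 4.77 and 12.4 FPKM in SMAD4KO_Braf and 0.914, 20.8 and 3.74 FPKM in BRAF. Both genes kept the order of libraries seen for Cd3e. Itgb7, the beta chain that pairs with CD103, had 1.32 and 3.15 FPKM in the libraries labelled CDX2KO_Braf, 0.689, 2.36 and 5.86 FPKM in SMAD4KO_Braf and 0.549, 11.8 and 1.64 FPKM in BRAF. Itgb7 departed from that order, since both libraries labelled CDX2KO_Braf lay above library 0 of either other group.

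Gzma and Gzmb encode granzymes, proteases that cytotoxic lymphocytes release into target cells, and Nkg7 encodes a membrane protein of their granules. Gzma had 4.46 and 25.2 FPKM in the libraries labelled CDX2KO_Braf, 21.2, 52.0 and 177 FPKM in SMAD4KO_Braf and 13.7, 367 and 68.8 FPKM in BRAF. Gzmb had 0.969 and 7.27 FPKM in the libraries labelled CDX2KO_Braf, 6.70, 22.2 and 62.4 FPKM in SMAD4KO_Braf and 4.27, 119 and 18.0 FPKM in BRAF. Gzma was the highest of the 9 genes in 7 of the 8 libraries, and Gzmb had the widest range. With an exon length of 1436 bases in GENCODE M21, the value assumed for 1 read puts Gzmb at an estimated 33.1 reads in library 0 labelled CDX2KO_Braf. In BRAF library 1 the estimate is 2324 reads. Nkg7 had 0.337 and 2.76 FPKM in the libraries labelled CDX2KO_Braf, 2.43, 8.48 and 27.5 FPKM in SMAD4KO_Braf and 1.45, 37.7 and 8.73 FPKM in BRAF. Gzmk, another granzyme gene, stayed at 0% to 2.52% of the Gzma level, and Prf1, which encodes the pore-forming perforin, at 0% to 1.51% of the Gzmb level.

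The sequences before the transcription starts of these 3 cytotoxic genes are shown because they are the members that share a short motif there. RefSeq (build GRCm38.p6) gives a promoter for 6 of the 9 genes, Cd3e, Cd3g, Cd8a, Gzma, Gzmb and Nkg7, and the 250 bases before the start were searched on both strands for TGTGGT, whose reverse complement is ACCACA. This hexamer is the core of the motif bound by RUNX factors, one of which, RUNX3, is known for its part in CD8 and intraepithelial T cells. It occurred in 3 of the 6 windows, Gzma, Gzmb and Nkg7, against 14.04% of 32817 windows of the same length in the table. Such a match is a description of the letters and does not show binding. The windows lie at chr13:113100982-113101231 (minus strand) for Gzma, chr14:56262335-56262584 (minus strand) for Gzmb and chr7:43436888-43437137 (plus strand) for Nkg7. They are written in the direction of transcription, with the motif in capitals, and Gzmb holds 2 copies.
Gzma: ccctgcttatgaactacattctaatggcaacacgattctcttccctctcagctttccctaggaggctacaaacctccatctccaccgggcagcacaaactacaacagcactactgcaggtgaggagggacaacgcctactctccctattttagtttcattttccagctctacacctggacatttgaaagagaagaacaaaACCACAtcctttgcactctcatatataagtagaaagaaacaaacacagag
Gzmb: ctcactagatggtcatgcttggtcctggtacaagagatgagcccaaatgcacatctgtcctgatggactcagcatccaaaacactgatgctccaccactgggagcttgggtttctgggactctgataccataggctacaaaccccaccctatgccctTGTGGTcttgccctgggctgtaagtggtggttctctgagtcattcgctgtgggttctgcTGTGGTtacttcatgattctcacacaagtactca
Nkg7: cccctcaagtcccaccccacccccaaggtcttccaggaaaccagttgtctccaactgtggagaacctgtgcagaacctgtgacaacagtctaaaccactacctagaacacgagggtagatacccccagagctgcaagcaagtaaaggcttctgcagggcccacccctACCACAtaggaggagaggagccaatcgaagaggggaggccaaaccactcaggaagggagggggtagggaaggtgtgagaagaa
Runx3 itself was low, at 0.0283 and 0.335 FPKM in the libraries labelled CDX2KO_Braf, 0.284, 0.896 and 1.998 FPKM in SMAD4KO_Braf and 0.132, 2.58 and 0.630 FPKM in BRAF.

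Ccl5 encodes a chemokine that cytotoxic lymphocytes make and that attracts T cells. It had 7.37 and 21.3 FPKM in the libraries labelled CDX2KO_Braf, 13.3, 35.6 and 126 FPKM in SMAD4KO_Braf and 9.36, 341 and 52.2 FPKM in BRAF. It was the member with the widest range within BRAF and the narrowest within the libraries labelled CDX2KO_Braf. In library 0 labelled CDX2KO_Braf its level exceeded that of Gzma, which occurred in no other library.

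From low to high, Cd3e, Cd3g, Cd8a, Gzmb, Cd7 and Itgae put the libraries in 1 order: library 0 labelled CDX2KO_Braf, BRAF 0, SMAD4KO_Braf 0, library 1 labelled CDX2KO_Braf, BRAF 2, SMAD4KO_Braf 1, SMAD4KO_Braf 2 and BRAF 1. Gzma, Ccl5 and Nkg7 exchanged BRAF 2 and SMAD4KO_Braf 1 and were otherwise the same. Neighbours in this order came from different groups at every step but 1, between the SMAD4KO_Braf libraries 1 and 2. On the scale of log2(FPKM + 1), centred on the mean of 8 libraries and averaged over the 9 genes, the levels were -2.21 and -0.76 in the libraries labelled CDX2KO_Braf, -1.05, 0.54 and 1.86 in SMAD4KO_Braf and -1.45, 2.70 and 0.39 in BRAF. Each gene's Pearson r over the 8 libraries with the mean of the other 8 genes lay between 0.982 (Ccl5) and 0.996 (Nkg7), and all these values share the libraries' depth and scaling.

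Differences between groups were fitted with limma on log2(FPKM + 1) for the 12084 genes that reached an FPKM of 1 in 2 or more libraries, which all 9 did, and genes with a Benjamini-Hochberg adjusted p under 0.05 were called. The spread left within groups, as residual SD on the log2 scale, was 1.39 (Itgae) to 1.93 (Ccl5) for the 9 genes, against a median of 0.208 over all tested genes. They ranked between 176 and 246 from the largest of 12084.

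In the libraries labelled CDX2KO_Braf against BRAF, 0 of the 9 genes were called, while 14.1% of all tested genes were. The unadjusted p was under 0.05 for 0 of 9, against 28.8% of all tested genes. The fitted difference was negative for 9 of 9, against 5733 of 12084 tested genes, and its median was -2.07 against 0.02 over all of them. The 9 genes rose and fell together over the libraries, so 9 of 9 does not stand for 9 separate results. Gzma had a mean of 14.8 ± 14.7 FPKM in the libraries labelled CDX2KO_Braf (SD, n = 2) and 150 ± 190 FPKM in BRAF (SD, n = 3), and limma gave a log2 difference of -2.59 ± 1.44 (SE), a 95% interval from -5.97 to 0.78 and an adjusted p of 0.284. Itgae had the smallest difference in size, -1.48 ± 1.06, with an interval from -3.98 to 1.01 (limma adjusted p = 0.399). Each group pair overlapped for all 9 genes, where 48.4% of all tested genes did not overlap. Without BRAF library 1 the median difference of the 9 genes was -0.90, without BRAF library 0 it was -3.11 and without library 0 labelled CDX2KO_Braf it was -1.36. The lowest adjusted p of the 9 was then 0.504, 0.123 and 0.696.

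In SMAD4KO_Braf against BRAF, 0 of the 9 genes were called, while 0.0745% of all tested genes were, and the unadjusted p was under 0.05 for 0 of 9 against 15.1%. The fitted difference was negative for 6 of 9, against 6259 of 12084 tested genes, and its median was -0.03 against -0.01 over all of them. The extremes were Ccl5 at -0.50 ± 1.31 (SE), with a 95% interval from -3.59 to 2.59, and Cd8a at 0.17 ± 1.02, with an interval from -2.22 to 2.55 (limma adjusted p = 0.876 and 0.955). An interval this wide holds large differences of either sign. The direction turned with the libraries in the fit: the median was 0.997 without BRAF library 1 and 0.74 without SMAD4KO_Braf library 0, but -0.99 without BRAF library 0 and -0.77 without SMAD4KO_Braf library 2. For all 9 genes the groups overlapped, against 19.3% of all tested genes whose groups did not.

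Set against SMAD4KO_Braf, the libraries labelled CDX2KO_Braf gave 0 of 9 genes called, with 11.6% of all tested genes called, and an unadjusted p under 0.05 for 0 of 9 against 28.9%. The difference was negative for 9 of 9, against 5736 of 12084 tested genes, and its median was -1.96 against 0.02 over all of them. Here too the 9 genes are not separate results. This comparison shares its libraries with the other 2 comparisons, so it adds no separate evidence. Gzmb had a mean of 4.12 ± 4.46 FPKM in the libraries labelled CDX2KO_Braf (SD, n = 2) and 30.4 ± 28.8 FPKM in SMAD4KO_Braf (SD, n = 3), with a log2 difference of -2.48 ± 1.40 (SE) and a 95% interval from -5.77 to 0.82 (limma adjusted p = 0.295). Both groups overlapped for every one of the 9 genes, where 47.3% of all tested genes had groups that did not. The median of the 9 was -1.31 without SMAD4KO_Braf library 2 and -1.18 without library 0 labelled CDX2KO_Braf.

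**Figure D2:**
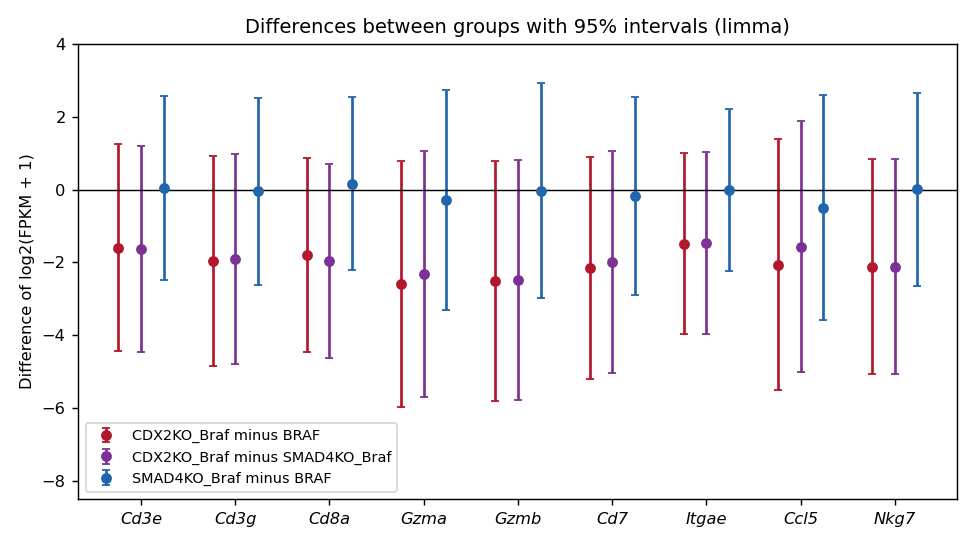
Difference of log2(FPKM + 1) between groups for each of the 9 genes, from limma, with 95% intervals; red is the libraries labelled CDX2KO_Braf minus BRAF, purple the same libraries minus SMAD4KO_Braf, and blue SMAD4KO_Braf minus BRAF. Every interval holds 0, with medians of -2.07, -1.96 and -0.03.

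Sex differed between libraries within 2 of the groups. The male libraries, SMAD4KO_Braf 0 and BRAF 0, were the lowest of their groups for all 9 genes, and both libraries labelled CDX2KO_Braf were female. Library 0 labelled CDX2KO_Braf, the lowest of all 8 for each gene, was thus not male. Among the female libraries alone, both of those labelled CDX2KO_Braf lay below both of BRAF for 9 of 9 genes, where 27.6% of all tested genes did so. They also lay below both female SMAD4KO_Braf libraries for 9 of 9 genes, against 30.0% of all tested genes. The 9 genes moved together, so 9 of 9 does not stand for 9 separate results. Keeping only female libraries left out the lowest library of BRAF and that of SMAD4KO_Braf. Fitted on female libraries, 0 of 9 were called in either comparison, and the lowest adjusted p was 0.0948 against BRAF and 0.101 against SMAD4KO_Braf (limma). With sex as a term in the fit of all 8 libraries, the lowest adjusted p was 0.0512 against BRAF (Cd3g), and against SMAD4KO_Braf 1 of 9 was called, Cd8a at -2.77 with an adjusted p of 0.0460, which ranged from 0.0460 to 0.681 over the alternatives. With 1 male library in each of 2 groups, sex and the individual library cannot be told apart.

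The ratio of each gene to Cd3e varied much less than the levels did. It is given as plain FPKM ratios, chosen after seeing the data, and where groups separate the result on the log2(FPKM + 1) scale is set beside it. Over the 8 libraries, the highest ratio exceeded the lowest by 1.76-fold for Cd8a, 1.81-fold for Cd7, 1.94-fold for Gzmb, 2.02-fold for Nkg7, 2.03-fold for Cd3g, 2.30-fold for Itgae, 2.40-fold for Gzma and 4.28-fold for Ccl5. The FPKM of the same 8 genes spanned 39.2-fold to 123-fold. Gzmb stood at 3.22 and 3.71 times Cd3e in the libraries labelled CDX2KO_Braf, 6.23, 3.56 and 4.37 times in SMAD4KO_Braf and 6.26, 5.03 and 4.53 times in BRAF. The libraries labelled CDX2KO_Braf lay below all 3 BRAF libraries in this ratio and overlapped SMAD4KO_Braf, but on the log2 scale they lay below both groups. Nkg7 stood at 1.119 and 1.41 times Cd3e in the libraries labelled CDX2KO_Braf, 2.26, 1.36 and 1.93 times in SMAD4KO_Braf and 2.13, 1.59 and 2.19 times in BRAF. The libraries labelled CDX2KO_Braf were again below BRAF and overlapped SMAD4KO_Braf, and on the log2 scale were below both. Ccl5 was at 24.5 and 10.9 times Cd3e in the libraries labelled CDX2KO_Braf, 12.4, 5.72 and 8.80 times in SMAD4KO_Braf and 13.7, 14.3 and 13.1 times in BRAF. All 3 SMAD4KO_Braf libraries lay below all 3 of BRAF in this ratio, but the groups overlapped on the log2 scale. Of the 8 plain ratios, 3 (Gzma, Gzmb and Nkg7) were lower without overlap in the libraries labelled CDX2KO_Braf than in BRAF, 0 than in SMAD4KO_Braf, and 2 (Cd3g and Ccl5) were lower in SMAD4KO_Braf than in BRAF. On the log2 scale these counts were 4 (Cd3g, Gzmb, Cd7 and Nkg7), 4 (Cd3g, Cd8a, Gzmb and Nkg7) and 0. No ratio was higher without overlap on either scale. The 1 added to each FPKM on the log2 scale draws ratios of low values toward 0. Cd3g over Cd3e in library 0 labelled CDX2KO_Braf was 1.91 as a plain ratio, the highest of the 8 libraries. On the log2 scale it was 0.274, below every library of both other groups. All 8 ratios share Cd3e as the denominator, so they are not separate results, and which of them separated changed with the scale. No share over all genes was computed to set beside these counts. These ratios are descriptions without a test, and Cd3e at 0.301 FPKM makes those of library 0 labelled CDX2KO_Braf the least precise.

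**Figure D3:**
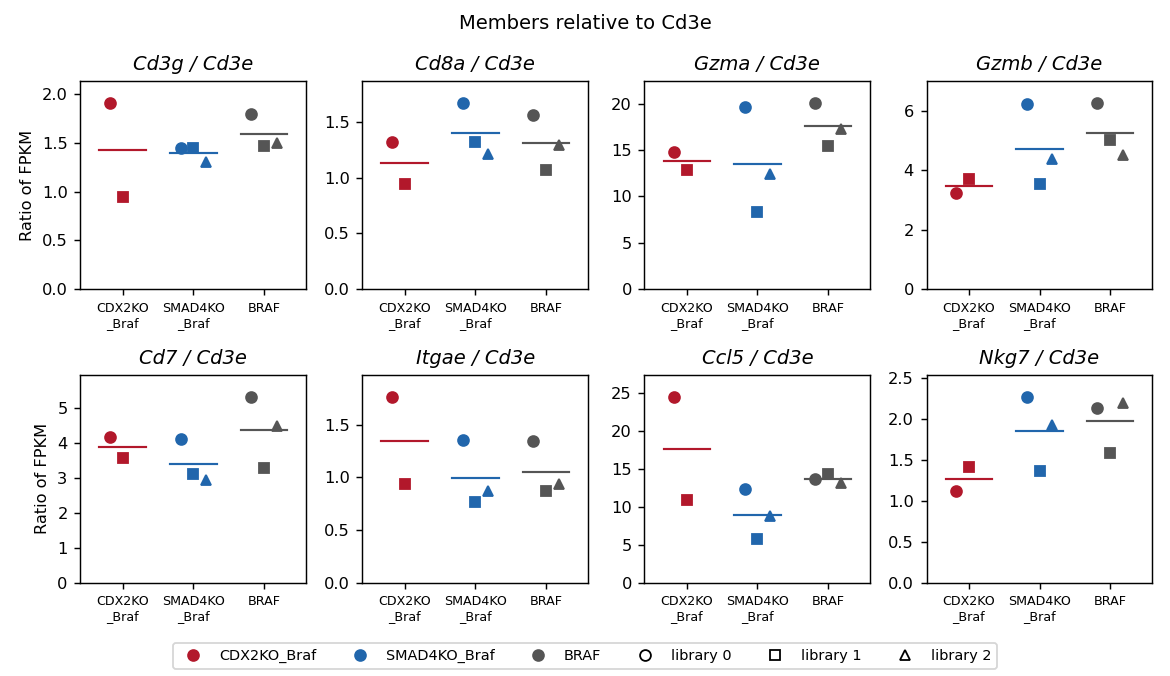
FPKM of each gene divided by that of Cd3e in the same library, for the libraries labelled CDX2KO_Braf (red), SMAD4KO_Braf (blue) and BRAF (grey); symbols mark the library number and lines the group mean, and each axis starts at 0. The ratios span 1.76-fold (Cd8a) to 4.28-fold (Ccl5) over the 8 libraries.

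Among the 12075 other tested genes, 150 had a Pearson r of at least 0.95 over the 8 libraries with the mean of the 9. The 10 most alike were Laptm5, Ccr9, Arhgdib, Gimap4, Lck, Fermt3, Coro1a, Prkch, Hvcn1 and Adam19, with r from 0.996 to 0.990. Their Spearman rho was 0.976 to 1, and r stayed between 0.965 and 0.995 in the 6 libraries left without BRAF library 1 and SMAD4KO_Braf library 2. Lck, the kinase that starts T cell receptor signalling, had 0.242 and 1.65 FPKM in the libraries labelled CDX2KO_Braf, 1.21, 5.48 and 10.2 FPKM in SMAD4KO_Braf and 0.920, 14.04 and 3.06 FPKM in BRAF. Ccr9, the receptor that guides lymphocytes to the small intestine, had 0.0998 and 0.557 FPKM in the libraries labelled CDX2KO_Braf, 0.411, 1.21 and 2.59 FPKM in SMAD4KO_Braf and 0.365, 3.25 and 1.03 FPKM in BRAF. Both followed the order of the members, with library 0 lowest in every group.

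Other tested genes of T cells and cytotoxic cells were, like the members, not called in any comparison. The share called over all tested genes was 14.1% in the libraries labelled CDX2KO_Braf against BRAF and 11.6% against SMAD4KO_Braf. It was 0.0745% in SMAD4KO_Braf against BRAF. Of 18 listed genes of the T cell receptor and its signalling, 16 were tested and 0 were called in any of the 3 comparisons, and their median difference was -0.81 in the libraries labelled CDX2KO_Braf against BRAF. Of 21 listed cytotoxic and natural killer type genes, 10 were tested and 0 were called in any comparison, with a median of -1.10 in the same one. Ctsw, a protease gene of cytotoxic cells, had 0.294 and 1.92 FPKM in the libraries labelled CDX2KO_Braf, 0.668, 6.13 and 12.1 FPKM in SMAD4KO_Braf and 0.714, 15.3 and 3.44 FPKM in BRAF. The T cell list summed to 4.81 and 16.8 FPKM in the libraries labelled CDX2KO_Braf, 7.16, 23.3 and 56.9 FPKM in SMAD4KO_Braf and 3.55, 88.8 and 16.3 FPKM in BRAF. The lowest sum was in BRAF 0, unlike that of the members, but 11 of the 18 genes were lowest in library 0 labelled CDX2KO_Braf. A single gene, Fyb, gave 2.91 of the 4.81 FPKM there and 0.464 of the 3.55 FPKM in BRAF 0. Fyb, an adaptor of T cell signalling, was at 2.91 and 9.10 FPKM in the libraries labelled CDX2KO_Braf, 1.22, 1.30 and 3.25 FPKM in SMAD4KO_Braf and 0.464, 3.90 and 1.18 FPKM in BRAF, and so was not lowest in the libraries labelled CDX2KO_Braf.

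Several lists of other leukocytes and of cells below the epithelium were, like the members, highest in BRAF library 1: those of leukocytes in general, macrophages, B cells, mesenchyme and red blood cells. Lists of mast cells and endothelium were not. The summed FPKM of the 9 members spanned 64.7-fold over the 8 libraries. The sums spanned 28.5-fold for mesenchyme, 12.7-fold for B cells, 7.61-fold for leukocytes in general and 6.36-fold for macrophages. A sum is weighted to its most abundant genes, and single genes of these lists differed, against 39.2-fold to 123-fold for single members. Of leukocytes in general, Arhgdib spanned 112-fold and Coro1a 50.4-fold, but Lcp1 4.05-fold and Ptpn6 2.24-fold. Lyz2 of macrophages spanned 49.1-fold and Cd14 2.26-fold, and Dcn of mesenchyme 277-fold and Vim 16.7-fold. Of the 14 genes of leukocytes in general, 14 were tested and 0 called in any comparison. They summed to 35.1 and 68.3 FPKM in the libraries labelled CDX2KO_Braf, 27.3 to 134.5 FPKM in SMAD4KO_Braf and 24.6 to 187 FPKM in BRAF. The sum was lowest in BRAF library 0, but 8 of the 14 genes were lowest in library 0 labelled CDX2KO_Braf. In that library Lcp1 and Ptpn6 stood at 13.2 and 14.4 FPKM. The 14 listed genes of mesenchyme and smooth muscle summed to 4.79 and 21.5 FPKM in the libraries labelled CDX2KO_Braf, 13.3, 43.6 and 54.0 FPKM in SMAD4KO_Braf and 11.6, 136 and 33.4 FPKM in BRAF. Dcn, a matrix gene of fibroblasts, was at 0.139 and 7.04 FPKM in the libraries labelled CDX2KO_Braf, 0.752, 13.7 and 8.88 FPKM in SMAD4KO_Braf and 0.968, 38.6 and 6.64 FPKM in BRAF. BRAF library 1 was highest for both this list and the members, and library 0 lowest in every group. In 8 tested genes of this list 0 were called in any comparison. The 14 genes of macrophages and dendritic cells summed to 24.2 and 36.8 FPKM in the libraries labelled CDX2KO_Braf, 25.0 to 81.4 FPKM in SMAD4KO_Braf and 19.5 to 124 FPKM in BRAF. The 10 genes of B and plasma cells summed to 1.31 and 3.24 FPKM, 3.89 to 15.4 FPKM and 3.09 to 16.6 FPKM in the same groups, with Tnfrsf17 at 0 throughout. None of the 9 endothelial genes reached an FPKM of 1 in any library, their sums were 0.559 to 1.06 FPKM, and Emcn was at 0 throughout. Globin genes and Alas2 of red blood cells summed to 0.0402 and 4.76 FPKM in the libraries labelled CDX2KO_Braf, 2.104 to 6.84 FPKM in SMAD4KO_Braf and 0.348 to 11.1 FPKM in BRAF. The part of these other cells in the level of the members was not tested.

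The summed FPKM of general epithelial genes spanned 1.72-fold and that of villus genes 7.81-fold. Single villus genes spanned more than any member, with Lct at 1059-fold and Sis at 265-fold, but mainly between groups. In the libraries labelled CDX2KO_Braf, Lct was at 0.494 and 0.0721 FPKM and Sis at 3.71 and 2.85 FPKM. Both were called lower there than in BRAF (limma adjusted p = 0.00181 and 0.000482), and within BRAF they spanned 2.14-fold and 2.05-fold. The 8 general epithelial genes, such as Epcam, summed to 6623 and 8018 FPKM in the libraries labelled CDX2KO_Braf, 6956, 5365 and 4817 FPKM in SMAD4KO_Braf and 8296, 5404 and 6799 FPKM in BRAF. The 13 villus enterocyte genes summed to 9121 and 4051 FPKM in the libraries labelled CDX2KO_Braf, 21348, 9330 and 7126 FPKM in SMAD4KO_Braf and 31652, 14713 and 16767 FPKM in BRAF. The 10 genes of crypt base stem cells and proliferation summed to 408 to 684 FPKM in the libraries labelled CDX2KO_Braf, 431 to 733 FPKM in SMAD4KO_Braf and 329 to 654 FPKM in BRAF, so crypt and villus genes were present in all 8. Library 0, lowest in the members in every group, was the highest in villus genes in every group. The part of the villus content in the level of the members was not tested.

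**Figure D4:**
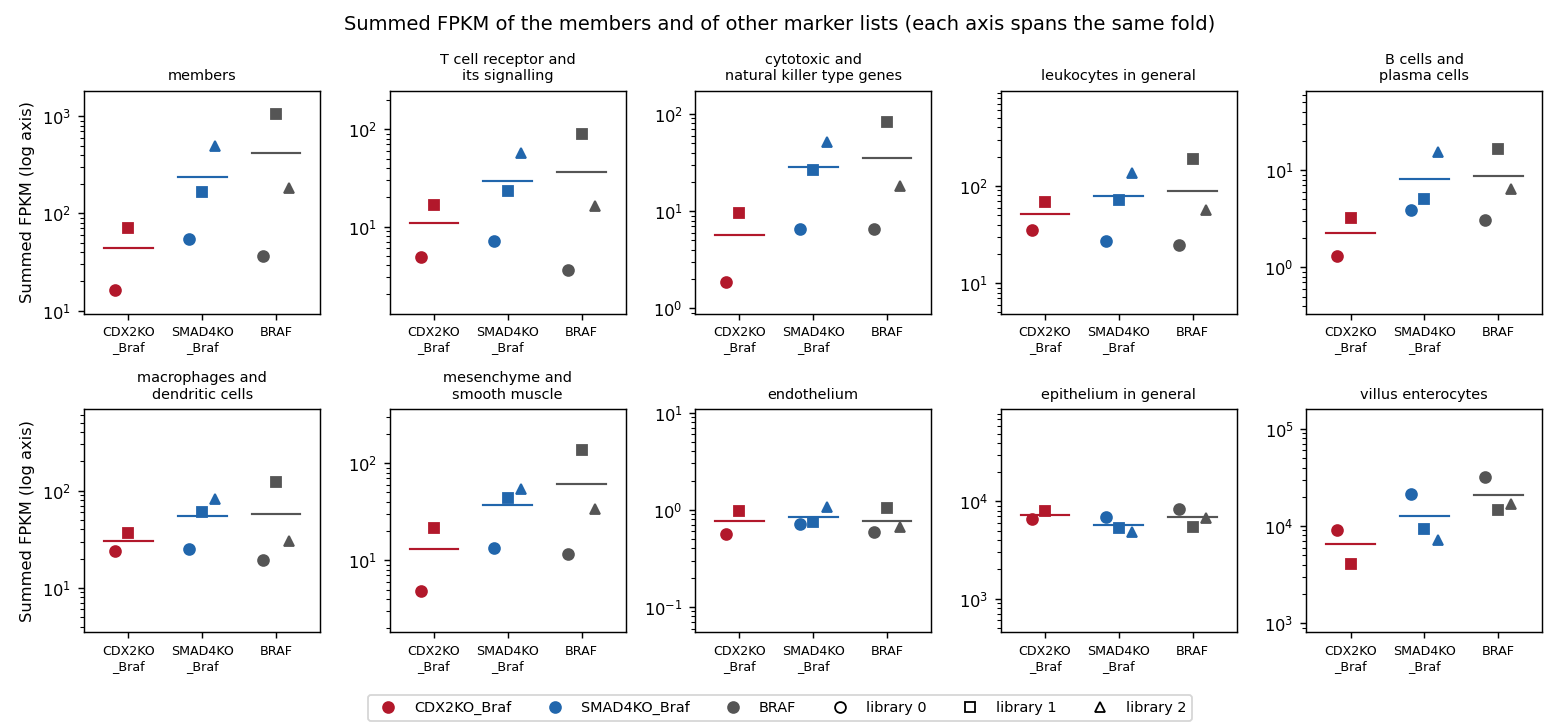
Summed FPKM (log axes, each spanning the same fold) of the 9 genes and of 9 marker lists in the libraries labelled CDX2KO_Braf (red), SMAD4KO_Braf (blue) and BRAF (grey); symbols mark the library number and lines the group mean. The 9 genes span 16.2 to 1048 FPKM, mesenchyme 4.79 to 136 FPKM, leukocytes in general 24.6 to 187 FPKM, villus genes 4051 to 31652 FPKM and general epithelial genes 4817 to 8296 FPKM.

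Some of the epithelial genes known to act on intraepithelial lymphocytes changed. Of 15 listed genes, 14 were tested, and in the libraries labelled CDX2KO_Braf against BRAF 0 rose, 5 fell and 9 did not pass the test. Their median was -1.16 against 0.02 over all tested genes, of which 7.21% were called lower. The difference was negative for 11 of the 14. Il7 lay higher, at 2.35 and 2.84 FPKM in the libraries labelled CDX2KO_Braf and 1.09, 1.90 and 1.65 FPKM in BRAF. Il15ra did too, at 7.99 and 9.57 against 5.53, 5.87 and 5.85 FPKM, and neither was called. H2-T3 encodes the thymus leukaemia antigen, a ligand of the CD8 alpha pair, and had 0.252 and 0.575 FPKM in the libraries labelled CDX2KO_Braf, 27.8, 16.4 and 28.8 FPKM in SMAD4KO_Braf and 36.6, 46.0 and 40.1 FPKM in BRAF. It fell by 4.89 ± 0.25 on the log2 scale against BRAF (limma adjusted p = 0.000148, at most 0.00291 under 20 alternatives) and by 4.13 ± 0.25 against SMAD4KO_Braf (limma adjusted p = 0.000277, at most 0.00584). Here the groups lay far apart, and both labelled libraries were below 1 FPKM. Ccl25, the epithelial chemokine that CCR9 recognises, had 54.7 and 24.1 FPKM in the libraries labelled CDX2KO_Braf, 268, 113 and 178 FPKM in SMAD4KO_Braf and 297, 263 and 343 FPKM in BRAF. It fell by 3.01 ± 0.43 against BRAF (limma adjusted p = 0.00530, at most 0.0433 under 20 alternatives).

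Vdr, the vitamin D receptor, had 8.93 and 6.63 FPKM in the libraries labelled CDX2KO_Braf, 47.3, 30.4 and 77.0 FPKM in SMAD4KO_Braf and 54.1, 97.8 and 63.3 FPKM in BRAF, and fell by 3.02 ± 0.40 against BRAF (limma adjusted p = 0.00421, at most 0.0449 under 20 alternatives). Btnl1, a butyrophilin-like protein that maintains gamma delta T cells of the gut, had 18.4 and 12.9 FPKM in the libraries labelled CDX2KO_Braf, 85.8, 32.2 and 56.0 FPKM in SMAD4KO_Braf and 131, 93.5 and 99.7 FPKM in BRAF. It fell by 2.71 ± 0.38 against BRAF (limma adjusted p = 0.00520), and the call was lost only without library 1 labelled CDX2KO_Braf, at 0.0539, with the lowest at 0.00132. Il15, a cytokine on which these lymphocytes depend, had 2.54 and 2.91 FPKM in the libraries labelled CDX2KO_Braf, 8.63, 5.42 and 4.80 FPKM in SMAD4KO_Braf and 9.49, 9.33 and 8.14 FPKM in BRAF. It fell by 1.42 ± 0.22 against BRAF (limma adjusted p = 0.00736), with a range of 0.00210 to 0.0549, the call being lost without library 0 (0.0549) or library 1 (0.0505) labelled CDX2KO_Braf. Cdh1, the E-cadherin gene, had 421 and 458 FPKM in the libraries labelled CDX2KO_Braf, 410, 321 and 288 FPKM in SMAD4KO_Braf and 457, 315 and 355 FPKM in BRAF and was not called in any comparison.

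Against SMAD4KO_Braf the libraries labelled CDX2KO_Braf had the same 5 of 14 genes called lower, H2-T3, Vdr, Ccl25, Btnl1 and Il15, where 5.01% of all tested genes were. The difference was negative for 8 of the 14. On the log2 scale Vdr fell by 2.50 ± 0.40 (limma adjusted p = 0.0103), Ccl25 by 2.24 ± 0.43 (0.0179), Btnl1 by 1.73 ± 0.38 (0.0303) and Il15 by 0.93 ± 0.22 (0.0369). H2-T3 was called in 20 of 20 alternatives, Vdr in 18, Ccl25 in 16, Btnl1 in 13 and Il15 in 10. Leaving out library 1 labelled CDX2KO_Braf ended the calls of Ccl25 (adjusted p = 0.112), Vdr (0.0848), Btnl1 (0.169) and Il15 (0.134) in limma, and leaving out library 0 ended those of Vdr (0.0505), Btnl1 (0.0958) and Il15 (0.191). Leaving out SMAD4KO_Braf library 2 ended those of Ccl25 (0.0546) and Btnl1 (0.0831), leaving out SMAD4KO_Braf library 1 that of Il15 (0.0582), and leaving out BRAF library 0, 1 or 2, which enter only the shared spread, that of Il15 (0.0563, 0.0530 and 0.0631), BRAF library 2 also that of Btnl1 (0.0556). The villus genes moved with this list: of 13 tested, 7 fell and 0 rose in the libraries labelled CDX2KO_Braf against BRAF, with a median of -1.95, and 2 fell and 1 rose against SMAD4KO_Braf, with a median of -0.65. The part of the villus content in the 5 calls was not tested. In SMAD4KO_Braf against BRAF, 0 of the 14 were called, with a median of -0.49 and an unadjusted p under 0.05 for 4 of 14.

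**Figure D5:**
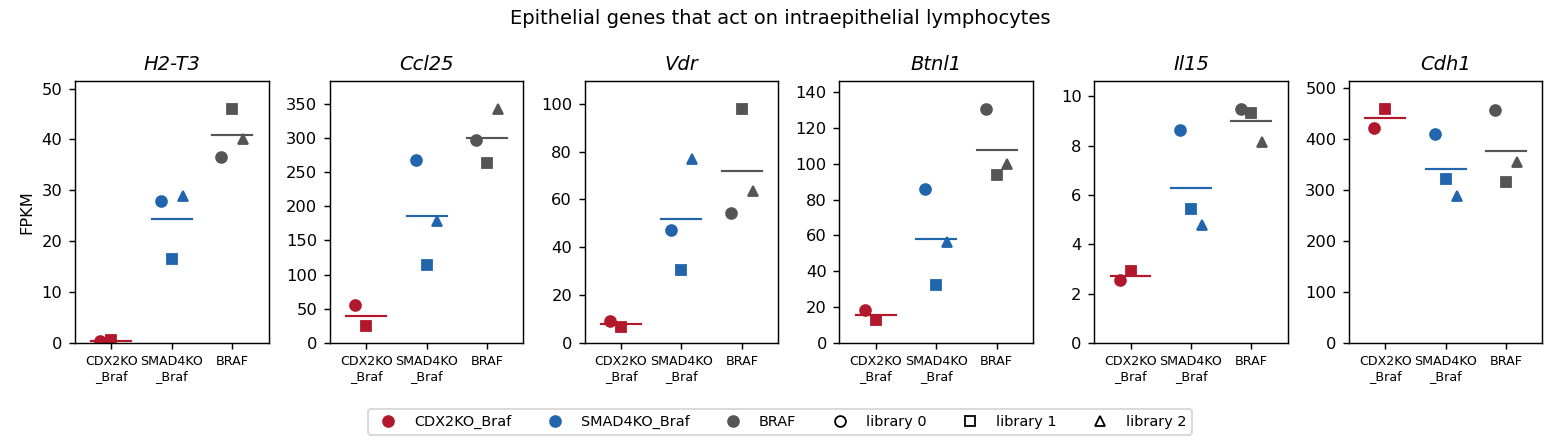
FPKM of 6 epithelial genes known to act on intraepithelial lymphocytes in the libraries labelled CDX2KO_Braf (red), SMAD4KO_Braf (blue) and BRAF (grey); symbols mark the library number, lines the group mean, and each axis starts at 0. H2-T3, Ccl25, Vdr, Btnl1 and Il15 are lower in both labelled libraries than in any BRAF library, and Cdh1, between 288 and 458 FPKM, overlaps between those libraries and BRAF.

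Genes of homing and residence gave a mixed picture, and which cells carried them was not tested. In library 0 labelled CDX2KO_Braf, Amica1, Gpr55 and Itga1 were at 8.48, 9.24 and 5.86 FPKM. Ptprc, a gene of leukocytes in general, was at 0.383 FPKM there, and Itgal of the homing list at 0.0286 FPKM. Of 15 listed genes 11 were tested, and in the libraries labelled CDX2KO_Braf against BRAF 1 rose (Gpr55) and 1 fell (Amica1), where 6.89% of all tested genes were called higher and 7.21% lower. Against SMAD4KO_Braf 2 rose (Gpr55 and Itga1) and 1 fell (Amica1), where 6.60% were called higher and 5.01% lower. Against BRAF, 1 of 11 genes in each direction lay near the share over all genes. The median of the list was -0.47 against BRAF and -0.43 against SMAD4KO_Braf. Amica1, an adhesion molecule of lymphocytes also called JAML, had 8.48 and 11.6 FPKM in the libraries labelled CDX2KO_Braf, 27.5, 34.9 and 34.7 FPKM in SMAD4KO_Braf and 16.2, 18.5 and 17.9 FPKM in BRAF. It fell by 1.60 ± 0.16 against SMAD4KO_Braf (limma adjusted p = 0.00213, at most 0.0153 under 20 alternatives), and did not follow the order of the members. Against BRAF it fell by 0.76 ± 0.16 (limma adjusted p = 0.0241, with a range of 0.00736 to 0.145), a call lost without BRAF library 1 (0.0629), BRAF library 2 (0.0722) or library 0 labelled CDX2KO_Braf (0.145). Gpr55, a lipid receptor, had 9.24 and 7.56 FPKM in the libraries labelled CDX2KO_Braf, 2.26, 1.80 and 2.75 FPKM in SMAD4KO_Braf and 2.24, 5.21 and 3.44 FPKM in BRAF. It rose by 1.53 ± 0.28 against SMAD4KO_Braf (limma adjusted p = 0.0154), a call lost without library 0 (0.107) or library 1 (0.0810) labelled CDX2KO_Braf, with a range of 0.00711 to 0.107. Against BRAF it rose by 1.07 ± 0.28 (limma adjusted p = 0.0446, with a range of 0.0130 to 0.228), a call made in 5 of 20 alternatives and lost without any 1 library other than BRAF 1, at 0.0588 to 0.228. Itga1, an integrin chain, had 5.86 and 5.54 FPKM in the libraries labelled CDX2KO_Braf and 2.80, 2.18 and 3.28 FPKM in SMAD4KO_Braf, and rose by 0.85 ± 0.22 (limma adjusted p = 0.0488, with a range of 0.0260 to 0.214). That call was made in 6 of 20 alternatives and lost without any 1 library other than BRAF 1 and BRAF 2, at 0.0711 to 0.214.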

How the data were processed

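Messenger RNA of jejunal crypts was sequenced as 50 bp single-end reads from TruSeq libraries, per the labels' protocols. The authors deposited 1 table of FPKM values for 23951 gene symbols. TopHat2 2.1.0, Cuffnorm 2.2.1, Cuffdiff 2.2.1 and the mouse build mm9 are named in the submitters' processing notes, with no word on which of them wrote the values. Column numbers start at 0 and title numbers at 1, which ties a column to a group but not to 1 sample, and 3 columns that matched no sample were not used here. Whether reads were counted by strand is not given in the sources used here, and reads shared between near-identical genes, such as the butyrophilin-like family, may be split between them.

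The 12084 genes that reached an FPKM of 1 in 2 or more of 8 libraries were tested as log2(FPKM + 1) in 1 limma 3.58.1 fit (R 4.3.3) of 3 groups with a mean-variance trend. P-values are two-sided and adjusted by Benjamini-Hochberg over all tested genes of each comparison, and the fit was tested on simulated data. A difference on this scale understates the change of genes at low FPKM. No depth is given, so no counting interval is printed. Summaries were made in Python 3.11.15 (pandas 2.3.3, numpy 2.4.6) and plots in matplotlib 3.10.9. Sex was read from Y-linked genes and Xist.

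The 9 genes, the lists and the alternatives were chosen with earlier results of these data known. Genes were named if they were members, among up to 4 of highest mean FPKM in a list, called by limma in a list, or among the 10 most like the members. Cd8b1, Cd4, Gzmk, Prf1, Itgb7, Runx3, Il7, Il15ra, Emcn, Tnfrsf17, Mcpt1 and Cpa3 were named after their values were seen. Settings changed 1 at a time were the pseudocount (0.1), the filter (none, or FPKM 5), scaling (median ratio or quantile), and the fit, with 2 groups per fit, no trend, a robust fit, library weights, sex as a term, female libraries only, a block for the column number, and each library left out in turn. A ratio to Cd3e with no pseudocount was added after seeing the data.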

Additional observations from a re-analysis of the deposited data

How the results depend on the processing

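Under 20 alternatives to each of the 3 fits, 0 of the 9 genes were called, except that 1, Cd8a, was called with sex as a term in the libraries labelled CDX2KO_Braf against SMAD4KO_Braf. Both comparisons of the libraries labelled CDX2KO_Braf kept a negative difference for 9 of 9 genes in all 20 alternatives. In SMAD4KO_Braf against BRAF the sign turned. With each library left out in turn, the log2 difference ran from -0.86 to 1.08 for Cd3e, -0.99 to 1.01 for Cd3g, -0.71 to 1.13 for Cd8a, -1.43 to 0.89 for Gzma, -1.09 to 1.16 for Gzmb, -1.20 to 0.85 for Cd7, -0.82 to 0.93 for Itgae, -1.73 to 0.79 for Ccl5 and -0.99 to 0.997 for Nkg7. Library weights turned Cd3g to 0.87, Gzma to 0.61, Gzmb to 0.98, Cd7 to 0.62, Itgae to 0.84 and Ccl5 to 0.47. A pseudocount of 0.1 gave 0.0030 for Cd3g and 0.074 for Itgae, quantile normalization -0.020 for Cd3e, 0.029 for Gzmb and -0.015 for Nkg7, and female libraries alone -0.080 for Cd3e and -0.24 for Nkg7. The cause of these turns was not tested. The order of libraries by the mean of the 9 genes was the same in 12 of 12 alternatives.

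The median log2 ratio of (FPKM + 1) to that of Cd3e over the other 8 genes was 0.66 in the libraries labelled CDX2KO_Braf, 1.08 in SMAD4KO_Braf and 1.202 in BRAF. It moved with a pseudocount of 0.1 to 1.11, 1.28 and 1.48 and with none to 1.24, 1.31 and 1.53 in the same groups, and with Cd3g as the denominator to 0.69 in SMAD4KO_Braf and 0.73 in BRAF. Over all tested genes, 9 were called in SMAD4KO_Braf against BRAF, and 5 to 1069 under the alternatives, the highest with library weights. The libraries labelled CDX2KO_Braf gave 1704 calls against BRAF, and 493 to 2602 under the alternatives, and 1402 against SMAD4KO_Braf, and 337 to 2447. Among left-out libraries these counts were lowest without a library labelled CDX2KO_Braf, at 693 (without library 0) and 493 (without library 1) against BRAF and at 510 and 337 against SMAD4KO_Braf, and were 1029 without BRAF library 2 in the first and 750 without SMAD4KO_Braf library 2 in the second. A group left with 1 library was assumed to vary like the other groups.

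The replicate block on the column number called 0 of 9 genes in each comparison and moved their median to -1.69 against BRAF and -1.65 against SMAD4KO_Braf for the libraries labelled CDX2KO_Braf, leaving -0.03 for SMAD4KO_Braf against BRAF. The block gave 805 calls over all tested genes in the second of these. It also ended the calls of Gpr55 (adjusted p = 0.0521), Il15 (0.0514) and Itga1 (0.131) against SMAD4KO_Braf and of Gpr55 (0.0976) against BRAF, in limma. Same-numbered libraries of SMAD4KO_Braf and BRAF had correlations of 0.24, -0.05 and 0.0035 in their deviations from the group means. Those of unlike number ran from -0.33 to 0.31. With 3 libraries a group, these correlations can neither show nor exclude that the numbers pair the samples. With 2 or 3 libraries a group and no read counts, only the spread between libraries measures precision.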

Other observations

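Some leukocyte genes outside the members did not share their pattern. Ptpn6, a phosphatase of blood cells that epithelium also expresses, had 14.4 and 25.8 FPKM in the libraries labelled CDX2KO_Braf, 13.3, 14.3 and 14.4 FPKM in SMAD4KO_Braf and 11.5, 16.7 and 14.6 FPKM in BRAF. Lcp1, an actin-bundling protein, had 13.2 and 12.7 FPKM in the libraries labelled CDX2KO_Braf, 3.52, 7.30 and 11.3 FPKM in SMAD4KO_Braf and 4.71, 14.3 and 6.80 FPKM in BRAF. Neither passed limma's test in a comparison. Of 11 tested genes of macrophages and dendritic cells, 10 had a negative difference in the libraries labelled CDX2KO_Braf against BRAF, all but Cd14. In library 0 of that label Csf1r was at 0.144 and C1qa at 0.0765 FPKM, and which cells carried Cd14 was not tested. Cd14, a receptor of macrophages, had 20.8 and 19.6 FPKM in the libraries labelled CDX2KO_Braf, 12.2, 17.1 and 16.9 FPKM in SMAD4KO_Braf and 9.21, 12.6 and 9.23 FPKM in BRAF. It rose by 0.92 ± 0.19 on the log2 scale against BRAF (limma adjusted p = 0.0213, with a range of 0.00314 to 0.122), a call lost without BRAF library 0 (0.0589), BRAF library 2 (0.0676), or library 0 (0.122) or library 1 (0.105) labelled CDX2KO_Braf.

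Of 3 mast cell protease genes that were tested, Mcpt1, Mcpt2 and Mcpt4, 1 was called. Mcpt1 had 1.02 and 4.42 FPKM in the libraries labelled CDX2KO_Braf, 1.11, 0.822 and 7.73 FPKM in SMAD4KO_Braf and 2.03, 6.14 and 6.11 FPKM in BRAF. Mcpt2 had 14.001 and 29.9 FPKM in the libraries labelled CDX2KO_Braf, 1.97, 3.39 and 3.02 FPKM in SMAD4KO_Braf and 17.6, 2.65 and 3.06 FPKM in BRAF, so that BRAF library 0, the second lowest in all 9 members, was high here. Mcpt4 had 3.52 and 3.60 FPKM in the libraries labelled CDX2KO_Braf, 0.166, 0.147 and 0.201 FPKM in SMAD4KO_Braf and 0.653, 0.385 and 0.122 FPKM in BRAF. It reached an FPKM of 1 in no other group, so it passed the filter only through the group where it was high. It was left out by the filter at FPKM 5, which leaves 19 alternatives. It rose by 1.74 ± 0.20 on the log2 scale against BRAF (limma adjusted p = 0.00270, at most 0.0311 under 19 alternatives) and by 1.96 ± 0.20 against SMAD4KO_Braf (limma adjusted p = 0.00217, at most 0.0268). Cpa3, another mast cell protease gene, was at 0 to 0.451 FPKM in all libraries.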
